A study of Mus musculus with 2 samples.

Results

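The annexins are a family of proteins, most of them calcium-dependent, that bind acidic phospholipids of membranes. Their transcripts were compared between LatY136F and wildtype mice, in CD4+ alpha beta T cells of the spleen. The 10 genes Anxa1, Anxa2, Anxa3, Anxa4, Anxa5, Anxa6, Anxa7, Anxa8, Anxa10 and Anxa11 were taken by gene symbol; the family had been chosen by its measured ratios on these same arrays, where several members stood high. They held 14 of the 8014 probes of the arrays and 10 of the 4331 genes named by probes with 1 symbol. LatY136F mice carry a tyrosine-to-phenylalanine substitution in Lat, a membrane adaptor that links the T cell receptor to its signalling enzymes. Cells of both genotypes came from spleen and were isolated with magnetic anti-CD4 beads and a cell sorter. RNA of the 2 genotypes was hybridised together on 2 two-colour arrays with the dyes reversed: array 1 had LatY136F RNA in channel 2 and wildtype RNA in channel 1, and array 2 had LatY136F RNA in channel 1 and wildtype RNA in channel 2. The labels give no age, no number of mice and no statement on separate RNA extracts, so the pair is 1 biological comparison and no gene has a p-value.

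Annexins are built from a conserved core of repeats and a variable amino-terminal tail. In most members the core carries the calcium and phospholipid binding, and the tail can bind partners such as S100 proteins. Through these contacts annexins take part in membrane repair, vesicle traffic and the organisation of membrane domains. Annexin A1 is also secreted and acts on formyl peptide receptors of leukocytes, where it is known as a glucocorticoid-induced limiter of inflammation. In T cells annexin A1 has been described as a modulator of receptor signalling and of helper cell differentiation.

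Values are log2 ratios of LatY136F over wildtype, from deposited log ratios read as log10, and ± gives 0.5 times the difference between the 2 arrays. That spread may be technical only and holds no variation between animals. Neither the base of the logarithm nor the direction of the ratio is stated in the labels. The sign of array 2 was turned because the dyes were reversed and the deposited columns correlated negatively. That correlation was weak (Pearson r -0.21 and Spearman -0.06 over all probes). The direction is the likely one, taken as channel 2 over channel 1. Under the opposite reading every "higher" becomes "lower". A gene was called where both arrays put it 2-fold or more apart in the same direction, a log2 ratio of 1 or beyond, or of -1 or beyond on the other side. Because only ratios are given, the level of a transcript is unknown, and a change in the share of a cell type cannot be told apart from a change in RNA per cell.

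The RefSeq promoter table (GRCm38.p6) held 8 of the 10 annexins, all but Anxa3 and Anxa6. The windows of Anxa1 and Anxa2, both called below, are shown beside that of Anxa10, whose mean ratio was the lowest of the family, because these 3 windows share the letters TATAAA. Each runs from 250 bases before to 50 bases after the gene's start, 5′ to 3′ on the gene's strand. Capitals mark matches, on either strand, to TATAAA (known as the TATA box), GGGCGG (for the factor Sp1), TGANTCA (for AP-1), CCAAT (for NF-Y), TTCNNNGAA (for STAT proteins) or AGATAA (for GATA factors). No matches overlap in the windows shown.
Anxa1, chr19:20390622-20390921, minus strand: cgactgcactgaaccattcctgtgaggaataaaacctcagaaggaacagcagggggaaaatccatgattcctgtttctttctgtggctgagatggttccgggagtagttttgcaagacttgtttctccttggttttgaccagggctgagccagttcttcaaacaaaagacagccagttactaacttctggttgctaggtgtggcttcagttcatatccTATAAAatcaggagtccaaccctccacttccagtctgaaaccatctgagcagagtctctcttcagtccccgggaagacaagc
Anxa2, chr9:69453433-69453732, plus strand: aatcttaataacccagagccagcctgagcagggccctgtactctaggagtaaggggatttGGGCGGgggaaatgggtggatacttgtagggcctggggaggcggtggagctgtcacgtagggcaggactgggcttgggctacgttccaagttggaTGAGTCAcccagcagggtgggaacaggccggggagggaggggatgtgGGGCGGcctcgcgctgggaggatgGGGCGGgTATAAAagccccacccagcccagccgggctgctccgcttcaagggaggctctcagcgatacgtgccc
Anxa10, chr8:62123144-62123443, minus strand: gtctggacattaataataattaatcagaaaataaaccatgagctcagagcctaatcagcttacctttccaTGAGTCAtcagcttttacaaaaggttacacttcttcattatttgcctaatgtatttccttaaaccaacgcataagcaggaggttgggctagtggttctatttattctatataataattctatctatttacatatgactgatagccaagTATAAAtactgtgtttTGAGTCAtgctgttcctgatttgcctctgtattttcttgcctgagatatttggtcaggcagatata

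The match to TATAAA began 32 bases before the start in Anxa1, 17 bases before it in Anxa2 and 32 bases before it in Anxa10. Of all 32851 promoter windows of the table, 13.6% held these letters on either strand. Anxa2 also had 3 matches to GGGCGG, found in 35.7% of all windows, and 1 to TGANTCA, found in 7.81%. GGGCGG was held by 4 of the 8 annexins: Anxa2, Anxa4, Anxa7 and Anxa11, the last with 3 matches too. Anxa10 had 2 matches to TGANTCA. None of the 8 annexins held CCAAT, which 37.4% of all windows did, and none held the STAT letters, found in 8.30%, while the only match to AGATAA (11.2% of all windows) lay in 1 of the 2 windows of Anxa4. The shown windows of Anxa1 and Anxa10 had 47.3% and 34.3% G and C, and that of Anxa2 had 63.7%, against a median of 52.7% over all windows. Of the 3 called annexins, Anxa1 and Anxa2 had windows: both held TATAAA, and Anxa2 but not Anxa1 held GGGCGG and TGANTCA. The 3 windows were shown because they share TATAAA, so that sharing was fixed by the choice. Whether these letters had a part in any ratio was not tested. A match describes these letters and says nothing of binding.

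In the likely direction, 3 of the 10 annexins passed the 2-fold call as higher in LatY136F than in wildtype cells: Anxa1, Anxa2 and Anxa3. None was 2-fold lower. Over all 4331 genes, 4.20% were called higher and 0.970% lower. The family was proposed from these ratios, so its count is a description. The median of the 10 genes was 0.69 and their means ran from -0.17 to 3.86, while the median of all genes was 0.0004. No annexin had a mean between 2.45 (Anxa2) and 0.95 (Anxa11).

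**Figure D1:**
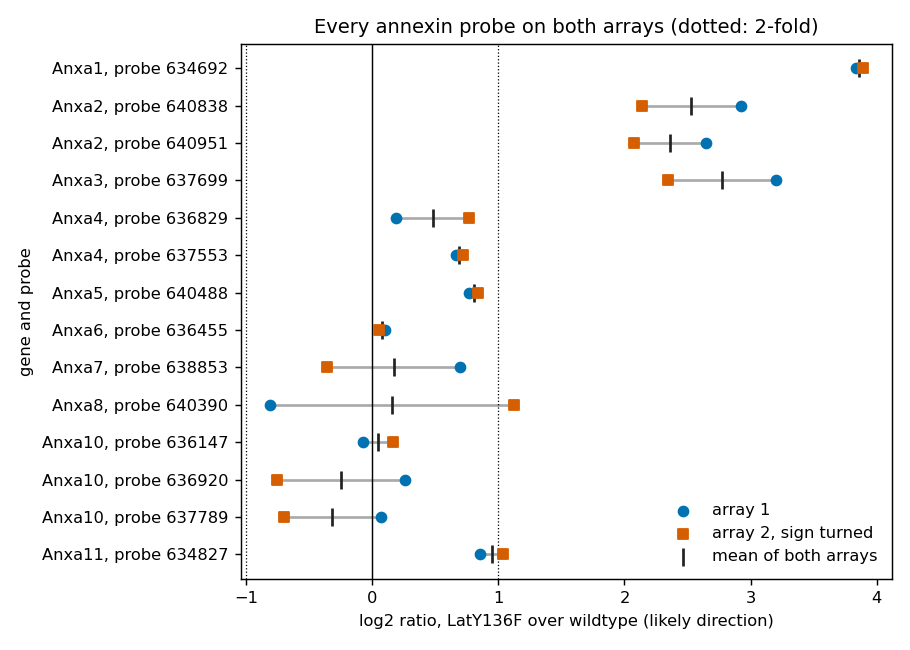
Log2 ratio of LatY136F over wildtype (horizontal axis) for each of the 14 annexin probes (rows), with array 1 as circles, array 2 with its sign turned as squares and the mean of both as a vertical mark; dotted lines mark 2-fold. The probes of Anxa1, Anxa2 and Anxa3 lie beyond 2.07 on both arrays, and those of Anxa7, Anxa8 and Anxa10 straddle 0.

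Anxa1 encodes annexin A1, the ligand of the formyl peptide receptor Fpr2. Its probe 634692 (gene ID 16952) gave 3.83 on array 1 and 3.89 on array 2. The mean of 3.86 ± 0.03 corresponds to a 14.5-fold higher level in LatY136F cells and ranked 11th among the 4331 genes, counted from the highest. The arrays lay closer together for this gene than for most: 11.1% of genes had a difference between the arrays as small or smaller.

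Anxa3 encodes annexin A3, a protein known from the granules of neutrophils. Its probe 637699 (gene ID 11745) gave 3.20 on array 1 and 2.35 on array 2. The mean was 2.77 ± 0.43, or 6.84-fold higher in LatY136F cells, at rank 24. The spread of 0.43 was wider than the median of 0.15 over all genes, and array 2 by itself still placed the gene beyond 4-fold.

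Anxa2 encodes annexin A2, which forms a complex with S100a10 at the plasma membrane and takes part in the binding of plasminogen there. Of its 2 probes, 640951, listed with a RefSeq mRNA, gave 2.65 on array 1 and 2.08 on array 2. Probe 640838, listed with another transcript record, gave 2.93 and 2.14. Both probes were thus higher in LatY136F cells in either dye orientation, and their means of 2.36 and 2.53 differed by 0.17, against a median range of 0.23 between probes of a gene over 294 genes with several probes. Averaged over probes, Anxa2 stood at 2.45 ± 0.34 (5.45-fold, rank 35). Array 1 gave the higher ratio for both Anxa2 probes and for Anxa3.

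Just outside the threshold stood Anxa11, at 0.86 on array 1 and 1.04 on array 2, and nearest to it on the inside Anxa2, at 2.79 and 2.11. Annexin A11 binds the S100 protein calcyclin and links RNA granules to lysosomes. Its mean of 0.95 ± 0.09 (probe 634827, gene ID 11744) corresponds to 1.93-fold, and 284 of 4331 genes (6.56%) had a higher mean. Array 1 kept it from the call.

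Anxa5 and Anxa4 had positive log2 ratios on both arrays without passing the call. Anxa5, whose product binds phosphatidylserine and serves as a stain of dying cells, gave 0.77 and 0.84 on the 2 arrays (mean 0.80 ± 0.04, 1.75-fold, probe 640488). Anxa4, which self-associates on membranes and is known from secretory epithelia, gave 0.66 on array 1 and 0.72 on array 2 with its RefSeq mRNA probe 637553. Its other probe, 636829, gave 0.19 and 0.77, so the Anxa4 probes were close together on array 2 and apart on array 1. The mean over both was 0.58 ± 0.16 (gene ID 11746). At a threshold of 1.5-fold on both arrays, 5 annexins were higher (Anxa5 and Anxa11 beside the 3 already named) and none lower, where 7.83% of all genes were higher and 2.93% lower.

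The log2 ratio of Anxa6 lay near 0 on both arrays. The gene encodes a large annexin that recruits the Ras regulator Rasa1 and protein kinase C alpha to membranes. Its probe 636455 gave 0.10 and 0.06, a mean of 0.08 ± 0.02, and the arrays were closer here than for any other member. With 1 comparison, no interval can be given for this ratio.

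The other 3 annexins had opposite signs on the arrays and so no direction. Anxa8, known from epithelia and late endosomes, gave -0.81 on array 1 and 1.12 on array 2 (mean 0.16 ± 0.96, probe 640390). A spread this wide or wider was met by few genes: Anxa8 stood at the 95.6th percentile of all genes. Anxa7, also called synexin and known for membrane fusion, gave 0.70 and -0.36 (mean 0.17 ± 0.53, probe 638853). The mean of Anxa10, an annexin of gastric epithelium, was -0.17 ± 0.26 over 3 probes. Probe 637789 gave 0.07 on array 1 and -0.70 on array 2, probe 636920 gave 0.26 and -0.76, and probe 636147 gave -0.07 and 0.17. The last of these thus went against the other two on both arrays.

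The same split can be read from the deposited values before any turning of signs, since the turned ratios are computed from them. For 9 of the 14 annexin probes the deposited log10 ratios had opposite signs on the 2 arrays, so that the ratio turned with the dyes. For Anxa1 these were 1.15 and -1.16. The other 5, the probes of Anxa7, Anxa8 and Anxa10, kept 1 sign in both orientations. Anxa8 stood at -0.25 on array 1 and -0.33 on array 2, so on this reading the channel 1 signal was the higher one whichever genotype it held. After turning, the signs on the arrays matched for 7 of the 10 annexins and for 55.8% of all 4331 genes. Because the family was chosen by these ratios, its share of matching signs is a description.

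**Figure D2:**
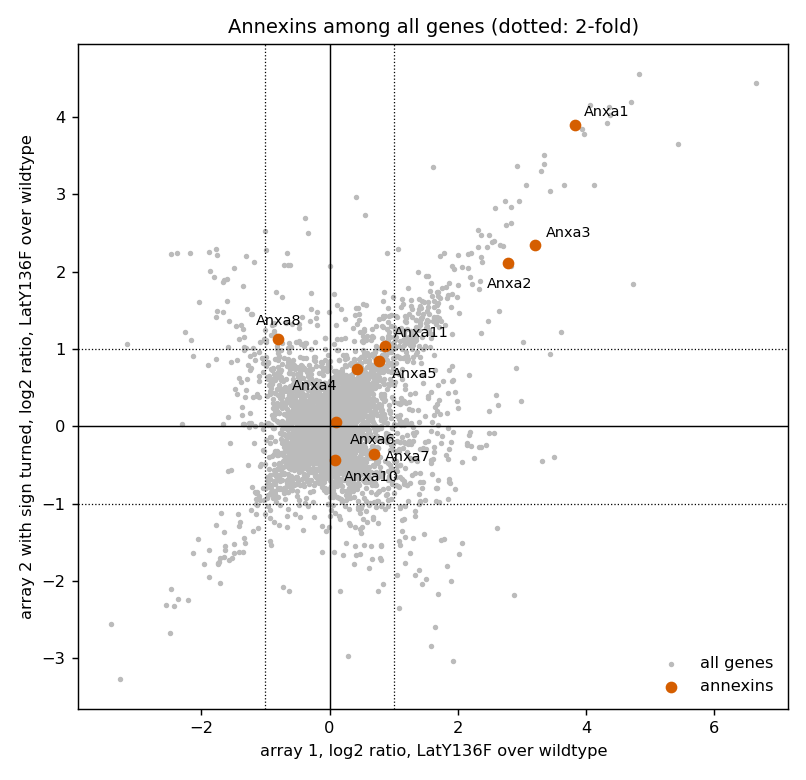
Log2 ratio of LatY136F over wildtype on array 1 (horizontal axis) against array 2 with its sign turned (vertical axis) for 4331 genes (grey) and the 10 annexins (orange); dotted lines mark 2-fold. Anxa1, Anxa3 and Anxa2 lie far up the diagonal, Anxa11, Anxa5 and Anxa4 lie up to about 2-fold, and Anxa8 lies off it at -0.81 and 1.12.

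The arrays also held Anxa9 and Anxa13, which are outside the set. Anxa9 gave 0.52 and 1.09 (mean 0.81 ± 0.28), and Anxa13 gave -0.18 and -0.11 (mean -0.15 ± 0.03), so neither was called. The annexins share related core repeats; the probe sequences were not used here, and whether a probe also bound RNA of another annexin was not tested.

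The genes whose pair of ratios was most like that of each called annexin were found by Euclidean distance over the 2 log2 ratios. These are 2 arrays of 1 comparison, so nearness describes 2 numbers. For Anxa1 the nearest were Gzmb, a cytotoxic protease, at 3.94 and 3.84 (distance 0.11), the phosphatase Ptpn13 at 3.97 and 3.78 (0.18) and the protease Bace2 at 4.07 and 4.15 (0.35). For Anxa2 they were the inhibitory receptor Lilrb4a at 2.83 and 2.07 (0.05), the neutrophil protease Ctsg at 2.70 and 2.33 (0.24) and the neutrophil granule protein Ngp at 2.66 and 2.34 (0.27). For Anxa3 they were Mrc1, the macrophage mannose receptor, at 2.84 and 2.62 (0.46), and again Lilrb4a (0.46) and Ctsg (0.50).

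Of 17 listed partners and targets of annexins, 8 were measured. Of these, 4 passed the call as higher in LatY136F cells with none lower, against 4.20% of all genes higher. The list was chosen with earlier results of these data known, so its count is a description. The median of the 8 was 0.75 (1.18 on array 1 and 0.72 on array 2). Fpr2, the receptor through which annexin A1 acts on leukocytes, gave 3.34 on array 1 and 3.39 on array 2 (3.37 ± 0.02, 10.3-fold). S100a11, the S100 protein that binds the tail of annexin A1, gave 1.92 and 1.71 (1.81 ± 0.11, 3.51-fold). S100a10, the partner of annexin A2, gave 1.28 and 1.41 (1.35 ± 0.06, 2.54-fold). Ahnak, a very large scaffold that binds the complex of annexin A2 with S100a10, gave 1.68 and 1.74 (1.71 ± 0.03, 3.27-fold).

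Both S100 ligands were therefore higher beside their annexins, by smaller factors: 3.51-fold for S100a11 beside 14.5-fold for Anxa1, and 2.54-fold for S100a10 beside 5.45-fold for Anxa2. S100a6, calcyclin, the partner of annexin A11, gave 1.08 on array 1 and -0.78 on array 2 and has no direction. The partners of annexin A6, itself at 0.08, were not called: Rasa1, which stimulates the GTPase of Ras, was at -0.34 ± 0.03 over 3 probes and Prkca, protein kinase C alpha, at 0.01 ± 0.02. Trpm7, a channel with a kinase that phosphorylates annexin A1, was at -0.23 ± 0.02.

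**Figure D3:**
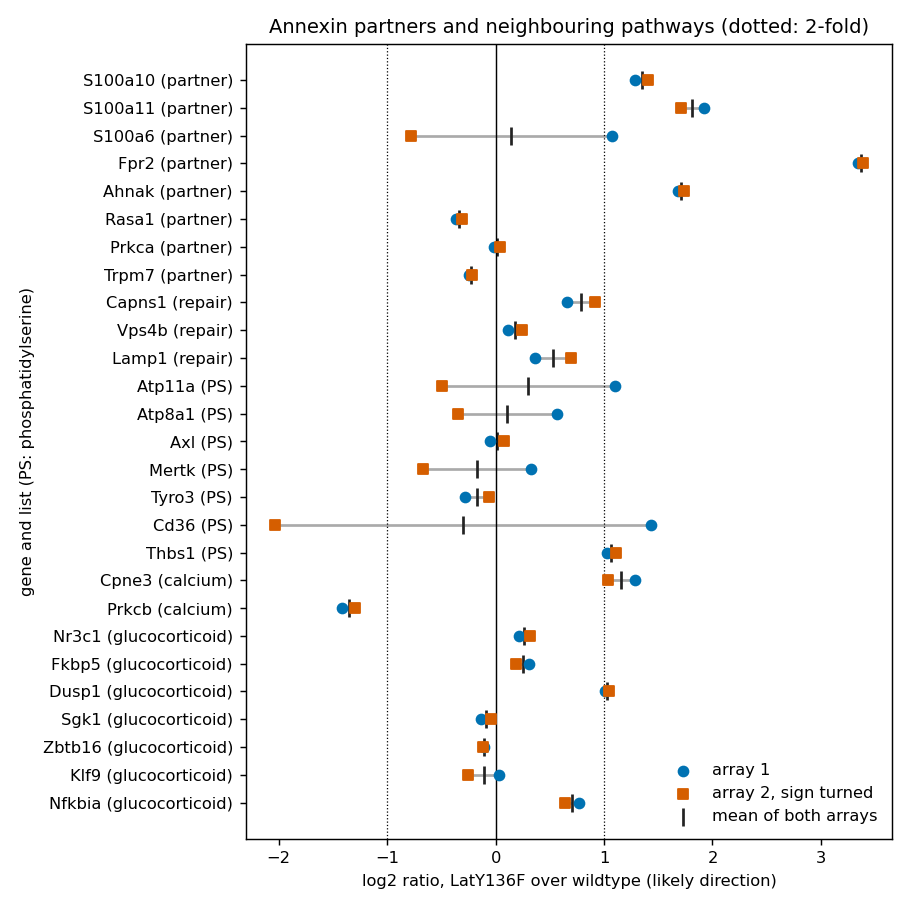
Log2 ratio of LatY136F over wildtype (horizontal axis) for the measured genes of the 5 pathway lists (rows, list in brackets), with array 1 as circles, array 2 with its sign turned as squares and the mean as a vertical mark; dotted lines mark 2-fold. Of the partners, Fpr2, S100a11, Ahnak and S100a10 lie beyond 2-fold on both arrays. Thbs1, Cpne3 and Dusp1 of the other lists do so too, and Prkcb does on the lower side. S100a6 and Cd36 are among several genes with opposite signs.

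Neighbouring pathways were measured thinly. The pathway lists, here and in the next paragraph, were also chosen with earlier results of these data known. Over all 4331 genes, 4.20% were called higher and 0.970% lower. Of 22 genes of membrane repair 3 were measured and none was called (median 0.53). The calpain subunit Capns1 was at 0.79 ± 0.13. Of 21 genes of phosphatidylserine exposure and recognition, the lipid bound by annexin A5, 7 were measured with a median of 0.01, and 2 of these 7 had matching signs on the arrays. The median was 0.57 on array 1 and -0.35 on array 2. Array 1 by itself put 3 of the 7 at least 2-fold higher, and 408 of all 4331 genes. Array 2 put 1 of the 7 higher and 1 lower, and of all genes 341 higher and 151 lower. Thbs1, the matrix protein thrombospondin, was called higher at 1.07 ± 0.04. Of 33 other calcium-dependent membrane-binding genes, 2 were measured: the copine Cpne3 was higher (1.16 ± 0.12) and the kinase Prkcb lower (-1.36 ± 0.06).

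Since Anxa1 is known as a glucocorticoid-induced gene, 10 genes of the glucocorticoid response were listed and 7 measured. Their median was 0.25, and 1 was called, the MAP kinase phosphatase Dusp1, at 1.01 and 1.05 on the 2 arrays (2.04-fold higher). Over all genes 4.20% were called higher. Nfkbia, the inhibitor of NF-kappa B, was at 0.70 ± 0.07. The means of the 7 ran from -0.11 to 1.03, and whether glucocorticoids had a part in the Anxa1 ratio was not tested.

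Markers of other cell types moved beside the annexins. The marker lists, here and in the next paragraph, were chosen with earlier results of these data known. Over all 4331 genes, 4.20% were called higher and 0.970% lower. Of 19 listed monocyte and macrophage markers 14 were measured; 6 were higher in LatY136F cells and none lower, and their means ran from -0.45 to 2.48 with a median of 1.20. C1qc, a complement subunit, was at 2.48 ± 0.08 and Lyz1, a lysozyme, at 2.27 ± 0.09. Of the 14 means 11 lay above 0. Those of Msr1 (-0.06 and -0.84 on the 2 arrays), Marco and Ctss lay below 0. Of 13 neutrophil markers 7 were measured; 3 were higher and none lower, with means between 0.16 and 3.62 and a median of 1.02 (1.71 on array 1 and 1.38 on array 2). The decoy receptor Il1r2 was at 3.62 ± 0.50 and Lcn2, an iron-scavenging granule protein, at 3.14 ± 0.22. Myeloid cells are known to express Anxa1, Anxa2, Anxa3 and Fpr2; the part of these cells in the annexin ratios was not tested.

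The labelled cell type cannot be checked by level, since ratios carry none. The T cell markers, by comparison, had a median of -0.04 over 8 genes (-0.09 on array 1 and 0.03 on array 2) with none called, and 5 of the 8 means lay below 0. Their means ran from -0.88, for the T cell receptor zeta chain gene Cd247 (-0.42 and -1.34 on the 2 arrays), to 0.81 ± 0.11 for Cd5, an inhibitory receptor. All 9 B cell markers measured had means below 0 (median -1.59) and 6 were called lower, where 0.970% of all genes were. Among the 6 were Cd79b of the B cell receptor at -2.29 ± 0.18 and the complement receptor Cr2 at -1.76 ± 0.29. Erythroid markers (3 measured, 2 higher against 4.20% of all genes, median 1.07) included Epor at 2.42 ± 0.06 and Hba-a1 at 1.07 ± 0.06. Platelet markers (3 measured, 2 higher, median 1.20) included Pf4 at 1.55 ± 0.36 and Itga2b at 1.20 ± 0.09, while the integrin gene Itgb3 gave -0.21 and -0.57 on the 2 arrays. Of 5 epithelial markers none was called (median 0.79, with 0.89 on array 1 and 0.21 on array 2; means from -0.62 to 1.05); the adhesion genes Cdh1 and Epcam were at 1.05 ± 0.18 and 0.81 ± 0.07. The keratin gene Krt19 gave 0.42 on array 1 and -1.66 on array 2, and Krt14 gave 0.06 and -0.15. The parts of these cell types in the annexin ratios were not tested either.

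**Figure D4:**
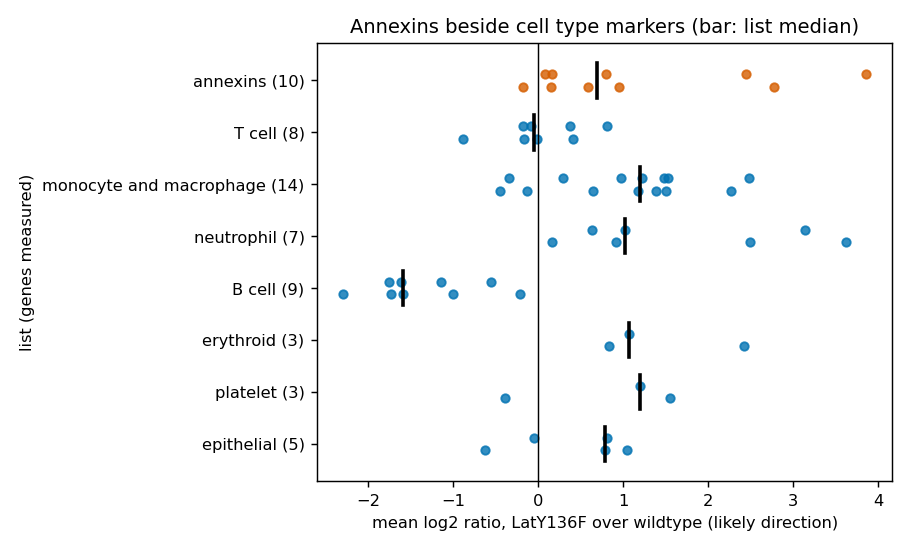
Mean log2 ratio of LatY136F over wildtype (horizontal axis) of each measured gene (points) in the annexin family (orange) and the 7 cell type marker lists (blue), with the list median as a black bar and the number of genes in brackets. The annexin median is 0.69. The marker medians are -1.59 (B cell), -0.04 (T cell), 0.79 (epithelial), 1.02 (neutrophil), 1.07 (erythroid), 1.20 (platelet) and 1.20 (monocyte and macrophage).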

How the data were processed

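RNA of LatY136F and wildtype CD4+ alpha beta T cells was compared on 2 two-colour arrays with reversed dyes. The authors deposited 1 log ratio per probe and array, read here as log10, for 8014 probes with no missing value; the base is likely because the highest value of array 1 is exactly 2, a 100-fold limit. Scanner signals were not analysed here, and no source used here states the background correction, the normalization or any filter, so a probe's precision is unknown and the number of arrays limits it. Column medians were -0.0033 and 0.0070; whether the authors centred the arrays is unknown. Values were multiplied by 3.32 to give log2 ratios, array 2 by -1, and the median of each array was then subtracted (Python 3.11.15, pandas 2.3.3). The platform annotation left 3287 probes without a symbol and gave 73 several and 4654 exactly 1; only the last were named, and probes of a gene were averaged. Of the 4654, 4640 matched the RefSeq gene table (GRCm38.p6), with no symbol changed.

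The members and gene lists were chosen with earlier results of these data known. Named were every annexin probe, every measured partner, up to 4 genes of each pathway list and up to 2 of each marker list, furthest from 0 among those past 1.5-fold with matching sign on the arrays (or the 2 furthest from 0 without such a gene), and the 3 nearest genes of each called annexin. Cd247, Itgb3, Cd36, Msr1, Marco, Ctss, Krt19 and Krt14 fall outside this rule where mentioned and were chosen after their values were seen. The arrays count as 1 sample, so no test was made. The calling rule was run on simulated data with planted ratios and separate errors for each array. That run did not cover errors shared by both arrays and set no limit on wrong calls among unchanged genes. Alternatives changed centring, scaling, probe choice, arrays, direction, logarithm, threshold and probes at exactly 0.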

Additional observations from a re-analysis of the deposited data

How the results depend on the processing

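The 3 annexins called higher remained Anxa1, Anxa2 and Anxa3 without centring, with scaled arrays, with the strongest probe per gene, without probes at exactly 0, at 3-fold and at 2-fold on the mean. Several of these settings could not drop the 3 genes. A gene past 2-fold on both arrays is past it on the mean. No annexin probe was at exactly 0, and centring shifts the arrays only slightly. On single arrays the count was 3 to 5, with Anxa8 and Anxa11 added on array 2 by itself, and the annexin median was 0.73 to 0.94. All genes then numbered 341 to 408 higher and 145 to 151 lower, against 182 and 42 on both arrays, as a call needs 1 array only, and the partner median was 0.72 to 1.18. At 1.5-fold 5 annexins were higher, with 339 genes higher and 127 lower; at 3-fold 69 and 19 genes were. Counting every probe singly gave 288 higher and 84 lower.

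Turning the direction makes Anxa1 -3.86, Anxa2 -2.45 and Anxa3 -2.77, the annexin median -0.69 and the partner median -0.75. It leaves 0 annexins and 0 partners higher, with 3 annexins and 4 partners lower, and all genes at 42 higher and 182 lower, by construction. Read as log2, the table holds 1 annexin (Anxa1), 1 partner (Fpr2) and 13 genes higher, 0 genes lower, and medians of 0.21 and 0.22 for annexins and partners, so the folds rest on the log10 reading.

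Other than the turned direction, none of the alternatives for the annexins or for 34 other named genes reversed a called value. This says little, because a called gene has the same sign on both arrays, so single arrays and thresholds could not reverse it. Genes not called were not counted. Among them Anxa7, Anxa8, Anxa10, S100a6 and Prkca had, on 1 of the arrays, the opposite sign to their mean. No paired analysis was possible because the series holds 1 dye-reversal pair and no second group of arrays. With no signal over background given, the precision of the ratios near 0 cannot be judged.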
